A study of Mus musculus with 18 samples.

Results

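Renin-angiotensin system transcripts were followed in injured mouse kidneys through 9 genes chosen by name: *Ren1*, *Agt*, *Ace*, *Agtr1a*, *Agtr1b*, *Mas1*, *Enpep*, *Mme* and *Anpep*. The 9 were looked up by symbol among the 45706 genes of the count files, and each had 1 Ensembl identifier there. The kidneys came from adult male C57BL/6 littermates and were removed 12 h after both renal pedicles had been clamped for 22.5 min. *Cxcl12* KO mice (n = 5) carried homozygous floxed *Cxcl12* alleles with the Pax8rtTA and TetOCre transgenes, and *Myc* KO mice (n = 5) carried floxed *Myc* alleles with the same transgenes. The *Cxcl12* control mice (n = 3) and *Myc* control mice (n = 5) carried the floxed alleles of their cohort and Pax8rtTA but lacked TetOCre. All 4 groups had received doxycycline, which switches on the recombinase through the Pax8 promoter in tubule cells, followed by a wash-out. Excision was therefore directed to tubule epithelium, whereas RNA was taken from the whole organ. All 18 kidneys were injured, and uninjured kidneys were not analysed here.

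The renin-angiotensin system controls blood pressure and salt balance. Renin, an aspartyl protease of the juxtaglomerular cells of the kidney, cleaves angiotensinogen to angiotensin I, and angiotensin converting enzyme (ACE) trims it to angiotensin II. Angiotensin II acts through type 1 receptors on vessels and tubules, and peptidases of the proximal tubule brush border break it down to shorter peptides, some of which act through the Mas receptor. In the kidney, angiotensinogen is made by proximal tubule cells and ACE lies on brush border and endothelium.

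Reads were counted on genes without regard to strand, at 12918220 to 29749500 reads per kidney. Unmapped reads made up less than 5% in 6 deeper kidneys, namely *Cxcl12* KO 1 and 2, *Myc* KO 3 and 5 and *Myc* control 1 and 3. No *Cxcl12* control kidney was among them. The labels name no batch, and this split was known from the mapping shares. In CPM (read counts scaled to library size), *Cxcl12* was at 32.3 ± 6.07 in its KO kidneys (SD, n = 5) against 53.5 ± 7.92 in the controls (SD, n = 3). *Myc* was at 31.0 ± 3.95 CPM in its KO kidneys (SD, n = 5) against 94.9 ± 14.5 CPM in the controls (SD, n = 5). The summed level of 10 proximal tubule marker genes was 5300 to 6190 CPM in *Cxcl12* KO and 6240 to 7530 CPM in *Cxcl12* control kidneys. These ranges did not overlap, but KO 1 (6191 CPM) and control 1 (6241 CPM) nearly met. Of all single genes tested in this cohort, 4.72% were wholly lower and 4.96% wholly higher in KO kidneys. Of the 10 genes, edgeR and limma voom called 0, 3 had an unadjusted p under 0.05 and DESeq2 called 1. The summed level of 4 injured tubule markers (*Havcr1*, *Lcn2*, *Krt20*, *Sox9*) was 2590 to 3150 CPM in *Cxcl12* KO and 1610 to 2440 CPM in *Cxcl12* control kidneys. That of 6 leukocyte markers was 71.4 to 149 CPM in *Cxcl12* KO and 62.9 to 70.8 CPM in *Cxcl12* control kidneys. Of 5 leukocyte genes tested, 4 had an unadjusted p under 0.05, and edgeR, DESeq2 and limma voom called 0. In the *Myc* cohort these sums overlapped between KO and control kidneys. They were 4640 to 7640 against 5070 to 6210 CPM (proximal tubule) and 2860 to 3340 against 2590 to 3390 CPM (injured tubule). Leukocyte sums were 173 to 267 against 98.0 to 238 CPM. In whole kidneys, fewer cells of a type and less RNA per cell cannot be told apart.

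*Agt* stood nominally lower in KO kidneys of both cohorts and *Anpep* in those of the *Cxcl12* cohort. In *Myc* KO kidneys *Anpep* was at a log2 fold change of -0.17. The log2 fold changes of *Ren1*, *Ace* and *Enpep* lay between -0.19 and 0.22 in both cohorts. *Agtr1a* was at -0.24 in *Cxcl12* KO and *Mas1* at 0.45 in *Myc* KO kidneys. *Mme* in *Cxcl12* KO kidneys was at -0.08, but at -0.43 without the deeper kidneys (adjusted p = 0.0891). *Anpep* was 0.70-fold of control in *Cxcl12* KO kidneys, and *Agt* was 0.70-fold in *Cxcl12* KO and 0.55-fold in *Myc* KO kidneys. None of these passed the threshold of an adjusted p of 0.05 in edgeR's quasi-likelihood test. In the *Cxcl12* cohort, 0 of the 8 members tested were called, where 0.0% of the 15154 genes tested were called. *Agt* and *Anpep* (2 members) had an unadjusted p under 0.05, as had 1976 genes (13.0%). DESeq2 called 1 member, *Anpep*, and 355 genes (2.34%), and limma voom called 0 of either (0.0%). In the *Myc* cohort, 0 of 8 members were called, against 246 of 14936 genes (1.65%). There, 1 member (*Agt*) had an unadjusted p under 0.05, as had 21.9% of all genes. DESeq2 and limma voom each called 0 members, against 7.63% and 1.44% of all genes. The median log2 fold change of the 8 members was -0.07 in *Cxcl12* KO and 0.11 in *Myc* KO kidneys, beside medians of 0.00083 and -0.00083 over all genes tested. *Agtr1b*, the remaining member, had too few counts and was removed by the filter on low counts in both cohorts.

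**Figure D1:**
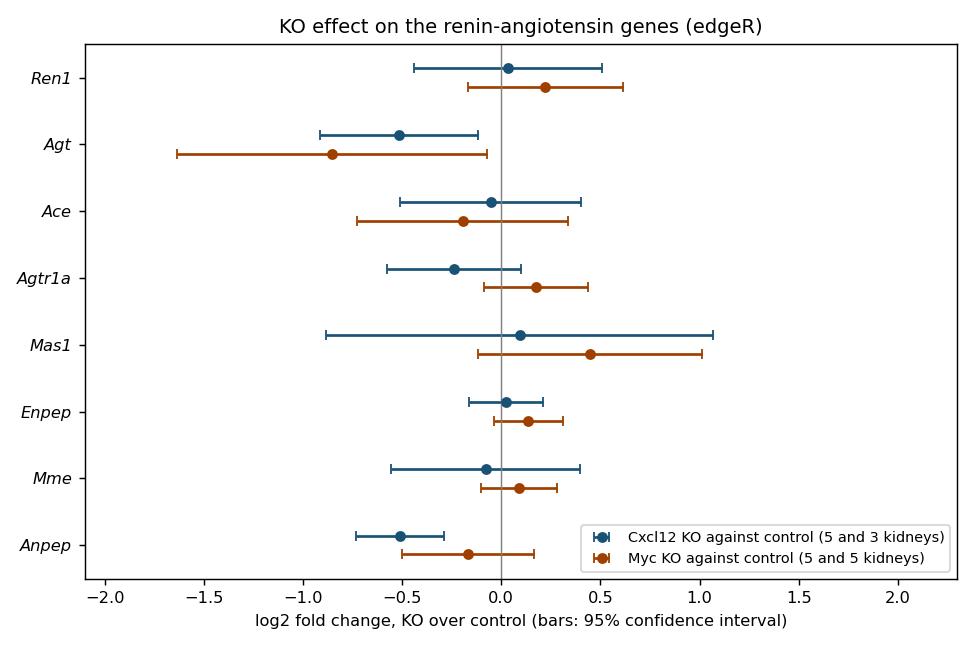
Log2 fold changes (x axis, KO over control) of the 8 renin-angiotensin genes that passed the filter on low counts, with 95% confidence intervals from edgeR, for *Cxcl12* KO against control (blue, 5 and 3 kidneys) and *Myc* KO against control (brown, 5 and 5 kidneys). The intervals of *Agt* lie below 0 in both cohorts and that of *Anpep* lies below 0 in the *Cxcl12* cohort alone, and no value passed an adjusted p of 0.05.

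Levels are given per kidney as CPM scaled by the TMM method over all 18 kidneys, and log2 fold changes come from the fit of each cohort by itself. Per kilobase of annotated exon and averaged over the 18 kidneys, *Ren1* was highest with 64.4 CPM per kb, followed by *Enpep* (32.8), *Anpep* (23.2), *Ace* (17.3) and *Agt* (15.8). *Mme*, whose merged exons span 11542 bases, had 8.38 CPM per kb and *Agtr1a* 7.73. *Mas1* had 0.287 and *Agtr1b* 0.0316 CPM per kb. The 3 receptor genes were the lowest of the 9. When the 4 groups were ordered by their mean, each neighbouring pair of groups overlapped for each of the 9 genes.

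**Figure D2:**
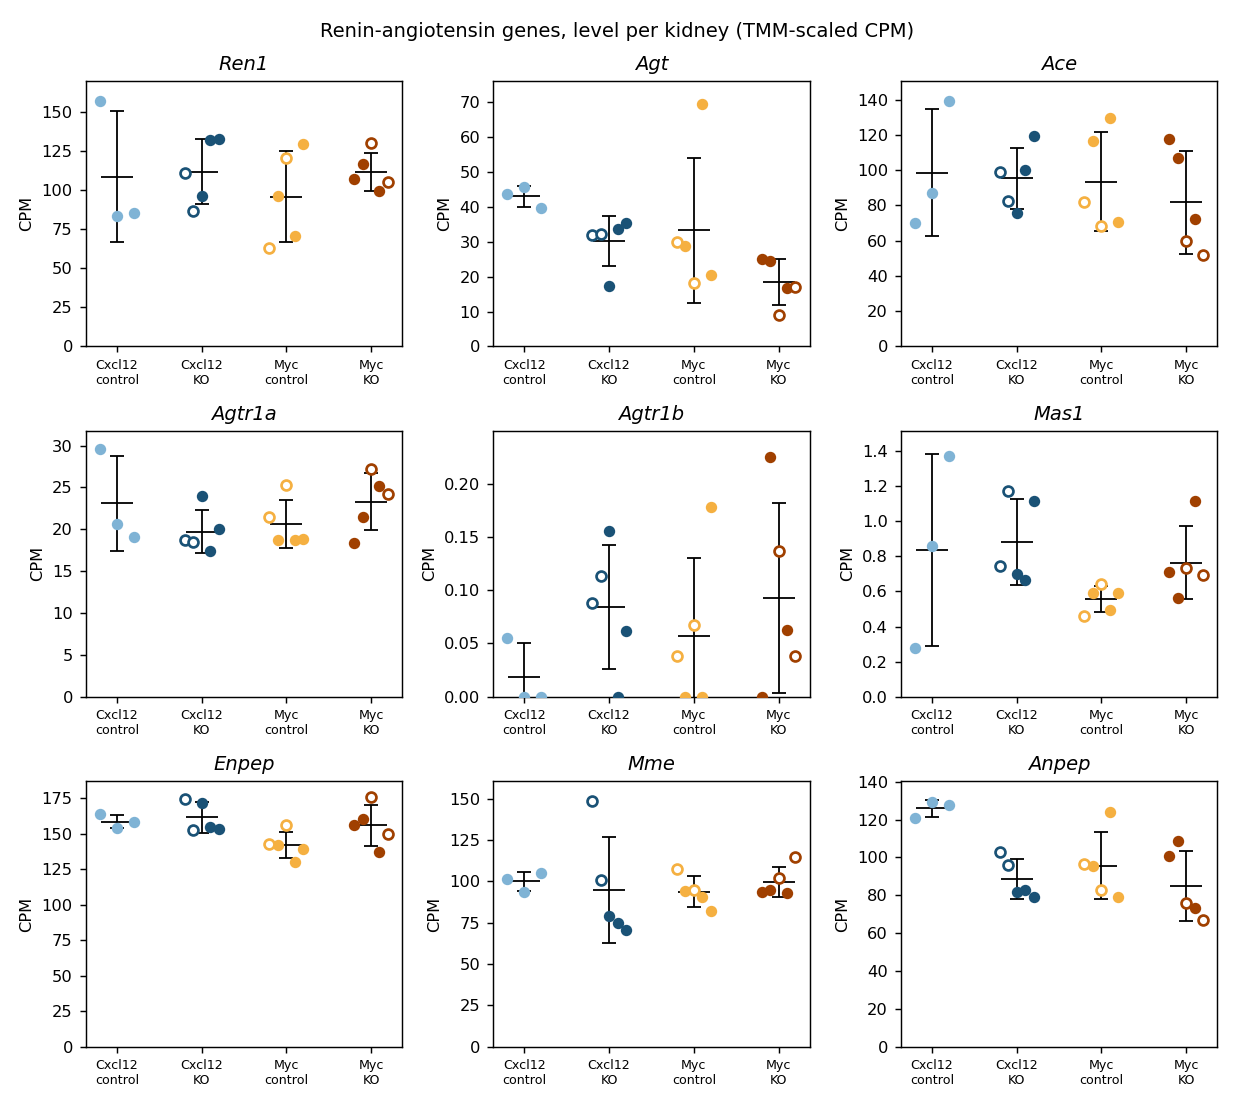
Level of each of the 9 genes (y axis, TMM-scaled CPM, linear from 0) in each of the 18 kidneys, by group. Open circles mark the 6 deeper kidneys, horizontal bars are group means and whiskers are 1 SD. *Agt* and *Anpep* lie wholly lower in *Cxcl12* KO than in *Cxcl12* control kidneys, and *Agt* in *Myc* control 4 (69.3 CPM) stands above the other 17 kidneys.

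*Agt* encodes angiotensinogen, the substrate of renin, and lies on chromosome 8 from 124556534 to 124569706 of GRCm38, on the minus strand (ENSMUSG00000031980). In *Cxcl12* control kidneys it was measured at 43.7, 45.6 and 39.7 CPM, and in *Cxcl12* KO kidneys 1 to 5 at 31.8, 32.2, 17.4, 33.6 and 35.4 CPM. All 5 KO kidneys lay below the 3 controls, and KO 3 was far below the other 4. Such wholly lower levels were found for 4.72% of all genes tested in this cohort, and 2 of the 8 members had them. The log2 fold change was -0.51 (SE 0.18, 95% confidence interval -0.91 to -0.12, edgeR adjusted p = 0.28), and it was -0.38 without KO 3, where the adjusted p was 0.131. In *Myc* KO kidneys 1 to 5, *Agt* stood at 25, 24.3, 9.05, 16.6 and 17.1 CPM. The *Myc* control kidneys 1 to 5 had 29.8, 28.7, 18.1, 69.3 and 20.5 CPM. These groups overlapped, and control 4 alone was more than 2 times as high as any other *Myc* control kidney. For *Agt* in the *Myc* cohort the log2 fold change was -0.85 (SE 0.36, 95% confidence interval -1.64 to -0.07, edgeR adjusted p = 0.198), but without *Myc* control 4 it was -0.40 (adjusted p = 0.494). The log2 fold change was -0.84 in the kidneys of this cohort outside the deeper group, which still include *Myc* control 4. It was -0.86 within the deeper kidneys alone (2 KO against 2 control kidneys), a setting added after seeing the data. Over all 18 kidneys *Agt* ranged 7.65-fold, the widest of the 8 members that passed the filter.

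*Ren1*, the renin gene, lies on chromosome 1 from 133350510 to 133360325 on the plus strand (ENSMUSG00000070645). Its level was 111, 86.3, 96.2, 132 and 133 CPM in *Cxcl12* KO kidneys and 157, 83.3 and 85.7 CPM in *Cxcl12* control kidneys. One control kidney was the highest of all 18 and the other two were among the lowest, so the groups overlapped. KO over control gave a log2 fold change of 0.03 (SE 0.21, 95% confidence interval -0.44 to 0.51, edgeR adjusted p = 0.961). *Myc* KO kidneys had 107, 117, 129.9, 99.2 and 105 CPM, and *Myc* control kidneys 63.1, 96.0, 120.3, 70.5 and 129 CPM. The *Myc* KO kidneys lay close together, 4 of the 5 inside the range of their controls and KO 3 just above it, with a coefficient of variation of 10.7% against 30.6%. KO against control differed by 0.22 on the log2 scale (SE 0.18, 95% confidence interval -0.17 to 0.61, edgeR adjusted p = 0.49).

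*Ace* encodes the enzyme that converts angiotensin I, and lies on chromosome 11 from 105967945 to 105989964 on the plus strand (ENSMUSG00000020681). It was measured at 99.0, 82.4, 75.6, 100.2 and 119 CPM in *Cxcl12* KO and at 69.8, 87.0 and 139 CPM in *Cxcl12* control kidneys. The controls spanned a wider range than the KO kidneys, and the log2 fold change was -0.05 (SE 0.21, edgeR adjusted p = 0.937). Leaving out *Cxcl12* control 3 turned it to 0.27 with an adjusted p of 0.645. In *Myc* KO kidneys *Ace* stood at 118, 107, 59.6, 72.4 and 51.9 CPM and in *Myc* control kidneys at 81.7, 117, 68.5, 129.5 and 70.8 CPM. The ranges overlapped, and the log2 fold change was -0.19 (SE 0.25, edgeR adjusted p = 0.673). *Ace* shares 173 exon bases with *Gm11651* on the opposite strand. Since the counting ignored strand, reads over such a stretch were ambiguous and went to neither gene. *Gm11651* had a count of 0 in every kidney, which does not tell how many reads *Ace* lost there.

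The type 1 angiotensin II receptor of rodents is encoded by a pair of genes, *Agtr1a* on chromosome 13 (30336441 to 30382867, plus strand, ENSMUSG00000049115) and *Agtr1b* on chromosome 3 (20314473 to 20367177, minus strand, ENSMUSG00000054988). Their coding sequences were compared because reads from near-identical copies can be lost or swapped between them. Both are 1080 bases long and 981 bases (90.8%) are identical without a gap, with 66 bases as the longest identical run. The stretch from base 972 to base 1061 of the coding sequence, counted from the A of the start codon in GENCODE vM21 transcripts, is shown since it holds 20 differences, which are in capitals:
Agtr1a: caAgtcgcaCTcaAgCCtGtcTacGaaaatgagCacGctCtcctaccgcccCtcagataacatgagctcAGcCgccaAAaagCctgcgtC
Agtr1b: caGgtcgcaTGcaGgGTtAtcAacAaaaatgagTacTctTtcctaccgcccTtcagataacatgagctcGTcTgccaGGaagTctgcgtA
Reads that align to more than 1 place were not counted by gene, so a read wholly within the coding sequence had to span such differences to be counted. The merged exons span 2786 bases in *Agtr1a* and 2147 in *Agtr1b*, and their bases outside the coding sequence were not compared.

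*Agtr1a* carried nearly all type 1 receptor counts, 7551 against 24 of *Agtr1b* over the 18 kidneys. *Cxcl12* KO kidneys had 18.8, 18.4, 23.96, 17.4 and 20.03 CPM and *Cxcl12* control kidneys 29.6, 20.6 and 19.1 CPM. *Cxcl12* control 1 was the highest of all 18, and the other 7 kidneys of this cohort lay between 17.4 and 23.96 CPM. A log2 fold change of -0.24 was fitted (SE 0.15, 95% confidence interval -0.58 to 0.10, edgeR adjusted p = 0.541). *Myc* KO kidneys had 18.4, 21.5, 27.2, 25.2 and 24.2 CPM against 21.5, 18.7, 25.3, 18.7 and 18.9 CPM in *Myc* control kidneys, with a log2 fold change of 0.18 (SE 0.12, edgeR adjusted p = 0.41). *Agtr1b* had 0 to 4 counts per kidney and was at 0 in 6 of them. A count of 3, the limit that a count of 0 allows, was worth 0.102 to 0.237 CPM, so that *Agtr1b* was at or near the limit of detection everywhere. On log2(CPM + 1), KO kidneys differed from controls by 0.0886 in the *Cxcl12* cohort (two-sided exact permutation p = 0.143) and by 0.0469 in the *Myc* cohort (exact permutation p = 0.516).

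*Mas1* encodes the receptor of angiotensin 1-7 and lies on chromosome 17 from 12841079 to 12868143 on the minus strand (ENSMUSG00000068037). It was rare, with 5 to 31 counts per kidney. *Cxcl12* KO kidneys had 0.748, 1.17, 0.7001, 0.666 and 1.12 CPM and their controls 0.277, 0.861 and 1.37 CPM, so the controls enclosed the KO kidneys. The log2 fold change of 0.09 had an interval of -0.89 to 1.07 (edgeR adjusted p = 0.95) and was -0.33 without *Cxcl12* control 1. In the *Myc* cohort the mean was 0.764 ± 0.208 CPM in KO (SD, n = 5) against 0.556 ± 0.0756 CPM in control kidneys (SD, n = 5). Its log2 fold change there was 0.45 (SE 0.26, 95% confidence interval -0.12 to 1.01, edgeR adjusted p = 0.333). Both intervals included 0 and reached past 1 on the log2 scale, so neither no change nor a doubling was outside them.

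*Anpep* (aminopeptidase N), a brush border enzyme that converts angiotensin III to angiotensin IV, lies on chromosome 7 from 79821803 to 79861059 on the minus strand (ENSMUSG00000039062). *Cxcl12* KO kidneys 1 to 5 had 103, 96.0, 81.5, 82.9 and 79.1 CPM, and *Cxcl12* control kidneys had 121, 129 and 128 CPM. The KO kidneys lay wholly below the controls, whose spread was narrow (126 ± 4.39 CPM, SD, n = 3, against 88.5 ± 10.4 CPM, SD, n = 5). The log2 fold change was -0.51 (SE 0.10, 95% confidence interval -0.73 to -0.29), with an unadjusted p of 0.00036 and an adjusted p of 0.0942 from edgeR's quasi-likelihood test. With other settings the call changed: the adjusted p was 0.00157 with DESeq2, 0.0278 without the filter on low counts (0.765% of all genes called) and 0.00902 with a term for the deeper kidneys (0.812% called). Without the deeper kidneys the log2 fold change was -0.65 in 3 against 3 kidneys (adjusted p = 0.0176), a setting in which 0.535% of all genes were called. Over all alternatives the adjusted p ranged from 0.00157 to 0.291, and leaving out any 1 kidney moved the log2 fold change between -0.57 and -0.48 without a call. In *Cxcl12* KO kidneys the proximal tubule marker sum was also wholly lower, though by little, and the injured tubule and leukocyte sums were wholly higher. Of all genes tested, 4.72% were wholly lower and 4.96% wholly higher there. The part of these cell types in the *Anpep* difference was not tested. In the *Myc* cohort *Anpep* stood at 101, 108.6, 76.0, 73.3 and 66.8 CPM in KO and at 96.4, 95.5, 83.0, 124 and 79.3 CPM in control kidneys. These overlapped, with a log2 fold change of -0.17 (SE 0.15, edgeR adjusted p = 0.541).

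*Enpep* (aminopeptidase A), which converts angiotensin II to angiotensin III, was the steadiest member. It lies on chromosome 3 from 129269175 to 129332720 on the minus strand (ENSMUSG00000028024). Its lowest, median and highest levels over the 18 kidneys were 130.4, 154.8 and 176 CPM, a coefficient of variation of 8.21%. The means were 162 ± 10.8 CPM in *Cxcl12* KO kidneys (SD, n = 5) against 159 ± 4.71 CPM in their controls (SD, n = 3). *Myc* KO kidneys had 156 ± 14.2 CPM (SD, n = 5) against 142 ± 9.29 CPM in their controls (SD, n = 5). In log2, KO and control differed by 0.02 in the *Cxcl12* cohort (SE 0.085, 95% confidence interval -0.16 to 0.21, edgeR adjusted p = 0.937). In the *Myc* cohort it was 0.13 (SE 0.080, 95% confidence interval -0.04 to 0.31, edgeR adjusted p = 0.343). *Enpep* and *Anpep* are both brush border aminopeptidases of the angiotensin cascade, yet *Enpep* varied less among kidneys than *Anpep*, whose coefficient of variation was 20.6%.

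*Mme* encodes neprilysin, a metalloprotease that forms angiotensin 1-7 from angiotensin I, and lies on chromosome 3 from 63241537 to 63386030 on the plus strand (ENSMUSG00000027820). *Cxcl12* KO kidneys had 149, 101, 79.1, 74.7 and 70.3 CPM and *Cxcl12* control kidneys 101, 93.7 and 105 CPM. The 2 highest KO kidneys were the deeper ones, and the other 3 lay below all controls. The log2 fold change was -0.08 (SE 0.22, edgeR adjusted p = 0.908) with all kidneys, -0.43 with a term for the deeper kidneys (adjusted p = 0.189) and -0.43 without them (adjusted p = 0.0891). Leaving out *Cxcl12* KO 1 alone gave -0.30. *Myc* KO kidneys had 93.3, 94.9, 102, 93.2 and 115 CPM and *Myc* control kidneys 107.5, 94.4, 94.5, 90.3 and 82.3 CPM. Here the log2 fold change was 0.09 (SE 0.088, 95% confidence interval -0.10 to 0.28, edgeR adjusted p = 0.575).

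The KO effects were then compared between the cohorts in a fit over all 18 kidneys. For 0 of 8 members did the *Myc* effect differ from the *Cxcl12* effect with an adjusted p under 0.05 in edgeR, against 11 of 15903 genes (0.0692%). No member had an unadjusted p under 0.05 (11.4% of all genes had), and DESeq2 and limma voom called 0, against 1.97% and 0.0189% of all genes. *Agtr1a* came closest, with a difference of 0.41 in log2 fold change (SE 0.20, edgeR unadjusted p = 0.0591 and adjusted p = 0.465), and it was slightly lower in *Cxcl12* KO and slightly higher in *Myc* KO kidneys. The difference was 0.34 for *Anpep* (SE 0.21, 95% confidence interval -0.09 to 0.77, edgeR adjusted p = 0.583) and -0.35 for *Agt* (SE 0.48, adjusted p = 0.851). The *Anpep* fall that some settings called in *Cxcl12* KO kidneys was therefore not shown to be particular to that cohort. Between the control groups, 0 of 8 members were called, against 316 of 15903 genes (1.99%). Here too DESeq2 and limma voom called 0, against 4.99% and 1.57% of all genes, and *Anpep* alone had an unadjusted p under 0.05, as had 17.7% of all genes. All 8 fitted members were nominally lower in *Myc* control than in *Cxcl12* control kidneys, with a median of -0.17, and *Anpep* was lower by a log2 difference of -0.40 (SE 0.15, edgeR adjusted p = 0.18). Some marker sums did not overlap between these control groups either. Of all single genes tested, 5.88% were wholly lower and 6.23% wholly higher in *Myc* control kidneys. The proximal tubule sum was lower in *Myc* control kidneys (5070 to 6210 against 6240 to 7530 CPM), and the sums of injured tubule (2590 to 3390 against 1610 to 2440 CPM) and of 6 leukocyte markers (98.0 to 238 against 62.9 to 70.8 CPM) were higher. Of these markers edgeR called *Lrp2* (log2 difference -0.63, adjusted p = 0.038), *Lcn2* (1.14, adjusted p = 0.0174), *Itgam* (1.34, adjusted p = 0.0146), *S100a8* (2.51, adjusted p = 0.0215) and *S100a9* (2.4, adjusted p = 0.0245). These were 1 of 10 proximal tubule, 1 of 4 injured tubule and 3 of 5 tested leukocyte genes. DESeq2 called 2, 2 and 4 of them, and limma voom 1 of each list. *Slc7a13* (0.06), *Havcr1* (-0.30) and *Csf1r* (-0.13) had the opposite sign to the sum of their list. The part of these cell types in the members' values was not tested. Floxed allele, cohort and time of the experiment cannot be told apart in this comparison.

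Across kidneys *Agt*, *Ace* and *Anpep* had positive correlations with each other and negative ones with *Agtr1a*, none of which passed after adjustment. Deviations from group means of log2(CPM + 1) were correlated over the 18 kidneys for the 28 pairs of 8 members, with p-values from 100000 permutations of kidneys within groups. *Agt* and *Anpep* had a Pearson r of 0.714 (permutation p = 0.00756, adjusted over the pairs 0.0529) and a Spearman rho of 0.67 (permutation p = 0.0111, adjusted 0.144). Without the 2 kidneys farthest in *Agt*, r was 0.629, and it was 0.782 in the 12 kidneys outside the deeper group and 0.529 in the 6 within it. For *Ace* and *Anpep*, r was 0.698 and rho 0.635 (permutation p = 0.00703 and 0.0154, adjusted 0.0529 and 0.144), with r at 0.701 without the 2 farthest, 0.683 in the 12 and 0.969 in the 6 kidneys. For *Agt* and *Ace*, r was 0.669 and rho 0.583 (permutation p = 0.00261 and 0.0207, adjusted 0.0529 and 0.145), falling to 0.601 without the 2 farthest kidneys and standing at 0.662 and 0.483 in the 12 and 6 kidneys. *Ace* and *Agtr1a* were opposed, with r of -0.725 and rho of -0.756 (permutation p = 0.00472 and 0.0026, adjusted 0.0529 and 0.0728), and r was -0.618 without the 2 farthest kidneys, -0.711 in the 12 and -0.591 in the 6. No pair passed 0.05 after adjustment, and these pairs share libraries and composition. Marker sums of cell types also differed between kidneys of a group. *Cxcl12* KO 3, the lowest of its group in *Agt*, had the highest sums of 6 endothelial (802 CPM) and 5 podocyte markers (777 CPM), where the other 4 had at most 692.9 and 624.2 CPM. *Myc* control 3 and 5, the lowest of their group in *Agt*, had endothelial sums of 943 and 925 CPM, where the other 3 had 657 to 691.7 CPM. *Cxcl12* KO 3 also had the lowest proximal tubule sum of its group (5302 CPM). *Myc* control 5 and 3 had the lowest of theirs (5070 and 5193 CPM). *Myc* KO 1 and 2, the highest of their group in *Agt*, *Ace* and *Anpep*, had the highest proximal tubule sums (7641 and 7353 CPM). *Myc* KO 5, the lowest in *Ace* and *Anpep*, had the lowest (4645 CPM). By contrast, *Cxcl12* control 3, the lowest of its group in *Agt*, had the highest sum there (7531 CPM). *Myc* control 4, the highest of its group in *Agt*, *Ace* and *Anpep*, had a proximal tubule sum of 6133 CPM, below *Myc* control 1 (6206 CPM). *Myc* KO 3, the lowest of its group in *Agt*, had 5508 CPM, above *Myc* KO 5. The part of these cell types in the correlations was not tested. *Ren1* had no r beyond 0.402 in size with any other member.

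**Figure D3:**
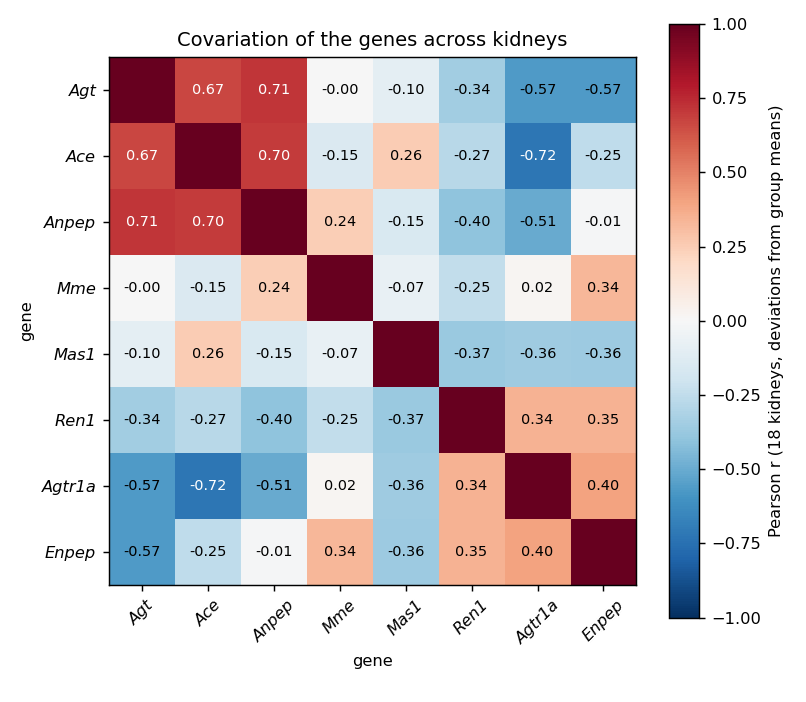
Pearson r between 8 members over 18 kidneys, from deviations of log2(CPM + 1) from group means (red positive, blue negative, scale from -1 to 1). *Agt*, *Ace* and *Anpep* form a block with r of 0.67 to 0.71, and *Agtr1a* has negative values with each of them.

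The promoter windows of these 3 genes and of *Ren1* are shown because *Agt*, *Ace* and *Anpep* had the highest positive r among members, without passing after adjustment, and *Ren1* did not share in it. RefSeq (GRCm38.p6) gave 11 windows, from 250 bases before to 50 bases after a start, for 8 of the 9 members. The letters TATAAA, searched on both strands, are in capitals, as TTTATA where they lie on the opposite strand:
Ren1, chr1:133350424-133350723, plus strand: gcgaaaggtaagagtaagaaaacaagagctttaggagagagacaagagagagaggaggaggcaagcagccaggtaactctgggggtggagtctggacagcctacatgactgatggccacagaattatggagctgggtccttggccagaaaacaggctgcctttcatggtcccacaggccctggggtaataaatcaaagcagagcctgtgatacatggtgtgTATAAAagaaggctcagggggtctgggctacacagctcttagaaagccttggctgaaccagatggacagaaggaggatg
Agt, chr8:124569657-124569956, minus strand: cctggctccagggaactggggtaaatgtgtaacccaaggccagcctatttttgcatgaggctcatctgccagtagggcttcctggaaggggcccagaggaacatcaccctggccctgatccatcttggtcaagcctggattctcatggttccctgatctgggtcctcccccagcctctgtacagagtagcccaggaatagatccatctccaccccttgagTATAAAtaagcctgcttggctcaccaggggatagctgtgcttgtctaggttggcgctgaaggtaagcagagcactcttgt
Ace, chr11:105967698-105967997, plus strand: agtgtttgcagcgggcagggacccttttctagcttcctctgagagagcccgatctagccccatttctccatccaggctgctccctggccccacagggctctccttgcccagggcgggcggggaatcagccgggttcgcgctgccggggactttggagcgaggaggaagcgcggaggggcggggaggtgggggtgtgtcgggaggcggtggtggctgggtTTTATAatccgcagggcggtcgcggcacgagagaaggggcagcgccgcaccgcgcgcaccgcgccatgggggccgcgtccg
Anpep, chr7:79848161-79848460, minus strand: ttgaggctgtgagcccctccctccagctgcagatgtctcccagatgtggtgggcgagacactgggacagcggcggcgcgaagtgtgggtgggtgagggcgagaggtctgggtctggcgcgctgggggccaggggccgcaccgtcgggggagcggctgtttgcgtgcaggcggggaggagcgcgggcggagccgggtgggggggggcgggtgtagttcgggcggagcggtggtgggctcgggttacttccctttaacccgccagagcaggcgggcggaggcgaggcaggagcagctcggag
TATAAA began 29 bases before the start in *Ren1* and 30 in *Agt*, and lay 31 bases before it on the opposite strand in *Ace*, while the *Anpep* window holds none. It was also in the windows of *Agtr1b* and *Enpep*, in 5 members in all. Of 32851 mouse promoter windows, 13.6% hold these letters somewhere and 2.12% hold them 25 to 35 bases before the start. CACGTG was in no member's window and in 7.15% of all windows. A match of letters is no evidence of use, and *Agt*, *Ace* and *Anpep* did not all hold this one.

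By the same deviations, *Ren1* was most alike to *Bmp1* (r = 0.847), *Slc2a10* (0.843) and *Tmem63a* (0.81) among 13767 genes with a mean of at least 1 CPM over the 18 kidneys. *Agtr1a* was most alike to *Gli3* (0.84), *BC005624* (0.822) and *Atp10d* (0.802), and *Mme* to *Phkb* (0.897), *Lypla1* (0.889) and *Mpzl2* (0.889). *Agt* and *Anpep* were added to this description after their values had been seen. *Agt* was most alike to *Gnpat* (0.891), *Tusc2* (0.882) and *Rwdd2b* (0.879), and *Anpep* to *Paqr7* (0.885), *Ces2e* (0.871) and *Dglucy* (0.867). *Gnpat*, which encodes an enzyme of ether lipid synthesis in peroxisomes, lies on the chromosome of *Agt*, 293327 bases away. The 13 genes within 500 kb of *Agt* that were tested had r from -0.625 (*Pgbd5*) to 0.891.

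Genes that act around the 9 members were read from 7 lists. Of the peptide processing list, other enzymes that form or degrade angiotensins, 10 of 13 genes passed the filter. In *Cxcl12* KO kidneys 0 of the 10 were called by edgeR, 0 had an unadjusted p under 0.05, and DESeq2 and limma voom called 0, with the smallest p for *Ctsd* (cathepsin D, log2 fold change 0.30, adjusted p = 0.468). In *Myc* KO kidneys *Thop1* (thimet oligopeptidase, which cuts angiotensin I to angiotensin 1-7) fell, from 27.8 ± 1.25 CPM (SD, n = 5) in controls to 21.3 ± 1.86 CPM (SD, n = 5). Its KO kidneys (19.5 to 23.7 CPM) lay wholly below the controls (26.5 to 29.8 CPM), as did 3.92% of all genes, and its log2 fold change was -0.38 (SE 0.079, edgeR adjusted p = 0.0347). Over the 20 settings run, the log2 fold change stayed between -0.42 and -0.35, but the adjusted p ranged from 0.000717 to 0.579 and was under 0.05 in 9. Leaving out *Myc* KO 2, 3, 4 or 5 or *Myc* control 2, 4 or 5 each ended the call, with adjusted p-values of 0.0975, 0.109, 0.073, 0.0861, 0.0996, 0.0618 and 0.0731. *Thop1* was at -0.08 in *Cxcl12* KO kidneys (edgeR adjusted p = 0.829), and its KO effects differed by -0.31 between the cohorts (edgeR adjusted p = 0.441). The mast cell genes *Cma1*, *Mcpt4* and *Cpa3* did not pass the filter, with at most 4 counts in a kidney. Of the receptor list, 6 of 8 genes passed and 0 were called by edgeR, DESeq2 or limma voom in either cohort, with 1 gene of unadjusted p under 0.05 in *Cxcl12* KO kidneys (*Arrb1*, log2 fold change -0.27, adjusted p = 0.236). In *Myc* KO kidneys *Gna11*, a G protein subunit, had the smallest p of that list (log2 fold change -0.20, adjusted p = 0.233). *Agtr2*, the type 2 receptor gene, had at most 1 count in a kidney and *Mrgprd* 0.

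Of the renin cell and renin release list, 23 of 25 genes passed the filter in each cohort and edgeR called 0. In *Cxcl12* KO kidneys 6 had an unadjusted p under 0.05, DESeq2 called 3 and limma voom 0, and in *Myc* KO kidneys these numbers were 4, 1 and 0. Over all genes, 13.0% had an unadjusted p under 0.05 and DESeq2 called 2.34% in the *Cxcl12* cohort, against 21.9% and 7.63% in the *Myc* cohort. *Akr1b7*, an aldo-keto reductase known from renin cells, was at 9.49 ± 1.80 CPM in *Cxcl12* KO (SD, n = 5) against 4.16 ± 0.494 CPM in control kidneys (SD, n = 3) (log2 fold change 1.18, edgeR adjusted p = 0.0664, from 2.16e-05 to 0.266 over the alternatives and under 0.05 in 5 of 17 settings). *Ptgs2*, a cyclooxygenase of the macula densa that promotes renin release, was at 103 ± 26.8 CPM in *Myc* KO (SD, n = 5) against 48.7 ± 19.7 CPM in *Myc* control kidneys (SD, n = 5) (log2 fold change 1.09, edgeR adjusted p = 0.0591, from 0.00161 to 0.579 and under 0.05 in 7 of 20 settings). *Akr1b7* was also nominally higher in *Myc* KO kidneys (log2 fold change 0.72, edgeR adjusted p = 0.229). *Ptgs2* was also nominally higher in *Cxcl12* KO kidneys (1.24, edgeR adjusted p = 0.138). Between control groups *Ptgs2* and *Akr1b7* were higher in *Myc* control kidneys, by 1.91 and 1.58 on the log2 scale (edgeR adjusted p = 0.0122 and 0.032). *Casr*, the calcium-sensing receptor, was lower there by a log2 difference of -0.77 (edgeR adjusted p = 0.0456). *Casr* was also nominally lower in *Cxcl12* KO kidneys (log2 fold change -1.01, edgeR adjusted p = 0.106), and it was at -0.08 in *Myc* KO kidneys (edgeR adjusted p = 0.721). The calls of these 3 genes between control groups ended when any 1 of the 3 *Cxcl12* control kidneys was left out (adjusted p from 0.0524 to 0.0774 for *Ptgs2*, 0.108 to 0.161 for *Akr1b7* and 0.116 to 0.207 for *Casr*). *Ren1* itself differed by -0.18 between the control groups (SE 0.23, edgeR adjusted p = 0.732).

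Of 17 mineralocorticoid axis genes, which carry the aldosterone response downstream of angiotensin II, edgeR called 0 in either cohort. In *Cxcl12* KO kidneys 6 had an unadjusted p under 0.05, with 2 calls by DESeq2 and 0 by limma voom, and in *Myc* KO kidneys 5, with 4 and 0 calls, beside 13.0% and 2.34% of all genes in the *Cxcl12* and 21.9% and 7.63% in the *Myc* cohort. *Hsd11b2*, which shields the mineralocorticoid receptor from glucocorticoids, was at 28.5 ± 8.38 CPM in *Cxcl12* KO (SD, n = 5) against 64.0 ± 14.4 CPM in control kidneys (SD, n = 3) (log2 fold change -1.17, edgeR adjusted p = 0.0933, from 0.000429 to 0.29 and under 0.05 in 5 of 17 settings). *Kcnj1*, the potassium channel ROMK, was at 48.0 ± 7.79 CPM in *Myc* KO (SD, n = 5) against 80.3 ± 20.3 CPM in control kidneys (SD, n = 5) (log2 fold change -0.74, edgeR adjusted p = 0.0516, from 0.00193 to 0.593 and under 0.05 in 4 of 20 settings). *Hsd11b2* was also nominally lower in *Myc* KO kidneys (log2 fold change -0.65, edgeR adjusted p = 0.0591), and *Kcnj1* in *Cxcl12* KO kidneys (-0.91, edgeR adjusted p = 0.254). *Klhl3* was lower in *Myc* control than in *Cxcl12* control kidneys (log2 difference -0.63, edgeR adjusted p = 0.0473), with adjusted p from 0.0116 to 0.221 over the alternatives and 10 of 25 settings under 0.05.

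Of 12 genes known to be induced through the type 1 receptor, edgeR called 0 in either cohort. In *Cxcl12* KO kidneys 4 had an unadjusted p under 0.05, with 2 calls by DESeq2 and 0 by limma voom, and in *Myc* KO kidneys 4, with 1 and 0 calls, where 13.0% and 21.9% of all genes had such a p and DESeq2 called 2.34% and 7.63%. The median log2 fold change was 0.32 in *Cxcl12* KO and 0.26 in *Myc* KO kidneys, beside 0.00083 and -0.00083 over all genes. Of the 12, 8 were positive and 4 negative in *Cxcl12* KO, and 10 positive and 2 negative in *Myc* KO kidneys. *Edn1* (endothelin 1) was at 25.4 ± 6.60 CPM in *Cxcl12* KO (SD, n = 5) against 14.5 ± 1.44 CPM in control kidneys (SD, n = 3) (log2 fold change 0.80, edgeR adjusted p = 0.132, under 0.05 in 2 of 17 settings), and it was higher in *Myc* control than in *Cxcl12* control kidneys by 0.89 (edgeR adjusted p = 0.0408, from 0.00326 to 0.169 over the alternatives and under 0.05 in 13 of 25 settings). *Hbegf*, a growth factor of the EGF family, was at 238 ± 8.45 CPM in *Myc* KO (SD, n = 5) against 160.4 ± 48.1 CPM in control kidneys (SD, n = 5) (log2 fold change 0.57, edgeR adjusted p = 0.102, under 0.05 in 2 of 20 settings). *Edn1* was also nominally higher in *Myc* KO kidneys (log2 fold change 0.49, edgeR adjusted p = 0.145), and *Hbegf* in *Cxcl12* KO kidneys (0.36, edgeR adjusted p = 0.4355). Of 5 kallikrein and kinin genes, 4 passed the filter and edgeR and limma voom called 0, with DESeq2 calling 0 in *Cxcl12* KO and 1 in *Myc* KO kidneys. At an unadjusted p under 0.05 there were 0 in *Cxcl12* KO kidneys and 1 in *Myc* KO kidneys, *Bdkrb2* (bradykinin B2 receptor, log2 fold change 0.81, adjusted p = 0.11, under 0.05 in 1 of 20 settings), which was at 0.42 in *Cxcl12* KO kidneys (adjusted p = 0.433).

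The 7 brush border peptidases other than the members gave 0 calls by edgeR, DESeq2 and limma voom in both cohorts, with 0 genes of unadjusted p under 0.05 in either. The smallest p belonged to *Dpp4* in *Cxcl12* KO (log2 fold change -0.20, adjusted p = 0.413) and to *Xpnpep2* in *Myc* KO kidneys (0.45, adjusted p = 0.26). All 7 had negative values in *Cxcl12* KO kidneys, from -0.33 to -0.04 with a median of -0.16, beside -0.51 for *Anpep*. Such signs were not particular to them. Of proximal tubule markers 9 of 10 were negative (median -0.19), and of smooth muscle and pericyte markers 7 of 7 (median -0.26). All 5 podocyte markers were positive. In *Myc* KO kidneys 3 were positive and 4 negative, with a median of -0.013. Adrenal cortex markers were measured as well, since the gland lies against the kidney and makes aldosterone. Of 8, 6 were under 1 CPM on average, and *Cyp11b1*, *Cyp11b2*, *Cyp11a1*, *Hsd3b1* and *Cyp21a1* had at most 2 counts in any kidney. *Mc2r* had at most 29 counts, *Star* averaged 4.07 CPM and *Akr1b7*, which is also on the renin cell list, 12.4 CPM. The sum of the 8 was wholly higher in *Cxcl12* KO (14.2 to 18.7 CPM) than in *Cxcl12* control kidneys (8.67 to 10.8 CPM). Single genes were wholly higher in KO kidneys for 4.96% of those tested. The means of the sum were 15.7 and 9.57 CPM, of which *Akr1b7* made up 9.49 and 4.16 CPM. Between control groups *Star* was called lower in *Myc* control kidneys (log2 difference -0.90, edgeR adjusted p = 0.0259). The part of adrenal tissue in the *Akr1b7* values was not tested.

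**Figure D4:**
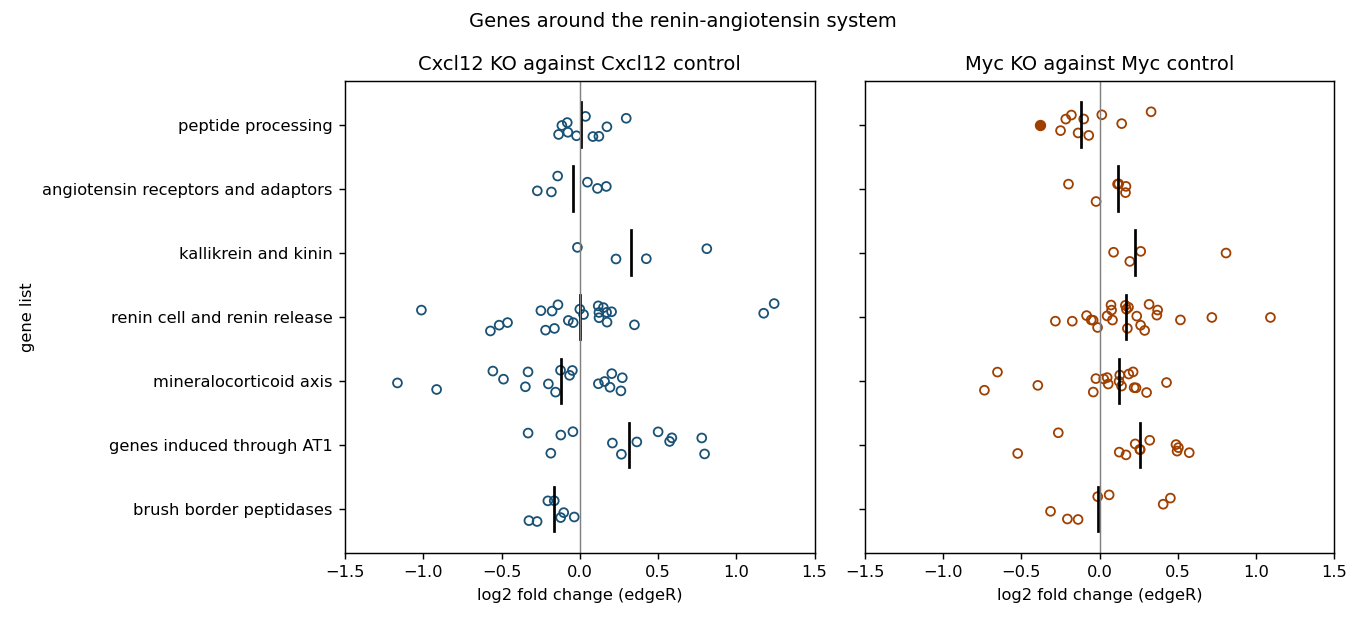
Log2 fold change (x axis) of each gene of 7 lists around the renin-angiotensin system, in *Cxcl12* KO against control (left) and *Myc* KO against control (right). Each circle is 1 gene, filled where the edgeR adjusted p was under 0.05, and black bars are list medians. *Thop1* in the *Myc* cohort is the filled circle, and the widest lists are renin cell and renin release and the mineralocorticoid axis.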

How the data were processed

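Whole-kidney RNA of 18 mice was sequenced. The authors trimmed reads with Trimmomatic 0.32, aligned them to GRCm38 with STAR 2.4.0 and deposited its raw counts per gene, without normalization. The count column that ignores strand was used. Gene names, positions and exon lengths came from GENCODE vM21, which named 45143 of 45706 genes.

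Low counts were removed per cohort by filterByExpr and libraries were scaled by TMM. KO and control kidneys were compared by the quasi-likelihood F-test (edgeR 4.0.16, R 4.3.3) with Benjamini-Hochberg adjustment over all genes tested. Comparisons between cohorts were fitted over all 18 kidneys. *Agtr1b* was tested by exact permutation. Alternatives used DESeq2 1.42.0, limma 3.58.1, other scaling and filters, the deeper kidneys as a term or left out, a replicate block and leaving out each kidney. The fits were tested on simulated data.

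Members and lists were chosen with earlier results of these data known. Of each list, genes with an adjusted p under 0.05 (at most 3) or else the gene of smallest p are named, the latter for the KO comparisons of the 7 lists alone. Others were named after their values had been seen. The study's methods mention a batch correction, which the deposited counts do not carry. Limits of 3 counts cover counting error only. A listed gene is not reported here.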

Additional observations from a re-analysis of the deposited data

Results flagged for a closer look

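A kidney that stood far from the rest of its group was found in 2 of the 27 member and group combinations that could be tested, and chance alone flags about 1 in 20. *Agt* was 17.4 CPM in *Cxcl12* KO 3, far below the other 4 kidneys of its group (31.8 to 35.4 CPM). *Agt* was 69.3 CPM in *Myc* control 4, far above the other 4 (18.1 to 29.8 CPM).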

How the results depend on the processing

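Over all genes, edgeR called 0 in the *Cxcl12* cohort against 355 with DESeq2, 214 without the filter, 123 with a term for the deeper kidneys, 80 without them and 25 in the fit over all 18 kidneys (0 to 15 with 1 kidney left out, 15 without *Cxcl12* KO 1). Under the first 4 of these, 1 member was called, *Anpep*. In the *Myc* cohort 246 became 1139 with DESeq2, 954 with the term, 683 in the fit over 18, 18 with the replicate block, 8 without the deeper kidneys and 0 in the deeper kidneys alone (added after seeing the data; 21 without *Myc* KO 2 to 877 without *Myc* control 3). The 11 genes whose KO effects differed became 314 with DESeq2, 3 with limma voom, 133 with the term, 44 without the deeper kidneys and 1 with the block (1 without *Cxcl12* control 3 to 75 without *Myc* KO 5). The 316 between controls became 794 with DESeq2 (49 without *Cxcl12* control 1 to 611 without *Myc* control 4). In these 3 comparisons, 0 members were called under each alternative run. The causes were not tested.

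Signs turned only for values that were not called. In *Cxcl12* KO kidneys *Mas1* was -0.0090 with the term and -0.015 without the deeper kidneys, *Enpep* -0.00017 without them, and *Ren1* -0.10 and *Mme* 0.089 with the replicate block. The difference of KO effects was -0.0012 for *Ren1* without the deeper kidneys and -0.00018 for *Mme* with the block, and *Ace* between controls was 0.093 with the term and 0.095 without the deeper kidneys. With 1 kidney left out, values in *Cxcl12* KO ran from -0.13 to 0.40 for *Ren1*, -0.25 to 0.27 for *Ace*, -0.33 to 0.63 for *Mas1*, -0.011 to 0.044 for *Enpep* and -0.30 to 0.0085 for *Mme*. The differences of KO effects ran from -0.17 to 0.34 for *Ren1*, -0.51 to 0.11 for *Agt*, -0.48 to 0.057 for *Ace* and -0.19 to 0.78 for *Mas1*, and those between controls from -0.34 to 0.18 for *Ren1*, -0.28 to 0.25 for *Ace* and -0.28 to 0.056 for *Agtr1a*.

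Same-numbered KO and control kidneys had a mean r of 0.085 in the *Cxcl12* (3 pairs, -0.06 to 0.202) and 0.057 in the *Myc* cohort (5 pairs, -0.188 to 0.321). Pairs of unlike number had means of -0.021 (12 pairs, -0.189 to 0.228) and -0.014 (20 pairs, -0.518 to 0.41). In the *Cxcl12* and *Myc* cohorts, 4 of 6 and 1 of 10 kidneys correlated best with their own number. A pairing by replicate number was not shown in the *Myc* cohort. In the *Cxcl12* cohort, with 3 pairs, it was neither shown nor excluded. With the block *Anpep* was -0.43 (adjusted p = 0.201) in *Cxcl12* KO kidneys. Depth limited *Agtr1b* and *Mas1*: with a pseudocount of 0.1 instead of 1, *Agtr1b* differed by 0.60 and 0.28 on the log2 scale in the *Cxcl12* and *Myc* cohorts (exact permutation p = 0.143 and 0.524).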
